A study of Mus musculus with 18 samples.

Results

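The genes described here mark macrophages and other myeloid cells or do their work: receptors, lysosomal proteins, the phagocyte oxidase, integrins, adaptors and leukocyte cytoskeleton. The list held 34 gene symbols, and a gene counted as measured where the platform annotation gave at least 1 probe set that symbol and no other. By that rule 30 of the 34 genes were measured, with 45 probe sets, among 8251 genes with such a probe set. Ms4a7, Cd163, Trem2 and Gpnmb were not analysed here. Of the 30 genes, 16 had 1 probe set, 13 had 2 and Ptprc had 3, and the brightest one stands for the gene unless another is named. The mean signal over all arrays reached 118.6 in 19 of the 30 genes, the level above which genes were tested. The other 11 are called dim below (Adgre1, Aif1, Cybb, Fcer1g, Fcgr3, Itgam, Itgb2, Msr1, Ncf4, Pf4 and Ptprc) and were tested in a fit to all 8251 genes.

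Kidney RNA was measured in 18 mice of strain C57, with 1 Affymetrix MG-U74Av2 array per mouse, and the series compares mice labelled Aprt KO with control littermates of the same sex. Aprt encodes adenine phosphoribosyltransferase, which salvages adenine; without it, adenine turns into dihydroxyadenine, which dissolves poorly and can form crystals in kidney tubules. At 7 days of age there were 6 controls and 6 KO mice, in 3 female and 3 male pairs, and at 1 month 3 of each, in 1 female and 2 male pairs. The design text gives the genotypes as Aprt-/- and Aprt+/+ and calls the ages newly born and adult, and the labels' ages are used here. No treatment is given in the labels, and how the KO allele was made is not given in the sources used here. Littermates share a number within an age below.

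Macrophages are phagocytes that settle in tissues before birth or arrive later as blood monocytes. They depend on the growth factor receptor Csf1r, and the transcription factor PU.1, encoded by Spi1, sets their gene programme. They sense microbes and debris through receptors such as Cd14 and take up particles coated with antibody through Fc receptors. The activating Fc receptors signal through the adaptor Fcer1g. Particles taken up are broken down in lysosomes rich in Cd68 and lysozyme. The kidney holds resident macrophages between its tubules, and blood monocytes enter it after injury. Several genes of the list, such as Ptprc and Coro1a, are shared by all leukocytes, and Pf4 is best known from platelets.

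The sequence upstream of the start site is shown first for 7 genes, since these genes moved together. They lie above the signal limit, rose at 7 days and have a promoter in the RefSeq tables (build GRCm38.p6). The dim genes Fcer1g and Ptprc, which rose in the fit to all genes, also have promoters there, which are not shown. Each run is the last 100 bases before the annotated start, 5′ to 3′ on the gene's strand. Capitals mark GAGGAA or its reverse complement TTCCTC, the core that PU.1 is known to read.
Fcgr2b: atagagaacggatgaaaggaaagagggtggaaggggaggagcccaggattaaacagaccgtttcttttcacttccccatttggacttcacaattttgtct
Cd53: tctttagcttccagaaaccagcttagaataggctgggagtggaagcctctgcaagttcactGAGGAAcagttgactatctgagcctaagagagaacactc
Laptm5: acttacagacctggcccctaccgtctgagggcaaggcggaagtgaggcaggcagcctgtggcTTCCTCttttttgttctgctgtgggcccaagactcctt
Itgax: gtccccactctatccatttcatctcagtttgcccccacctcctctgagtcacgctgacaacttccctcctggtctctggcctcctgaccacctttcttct
Lyz2: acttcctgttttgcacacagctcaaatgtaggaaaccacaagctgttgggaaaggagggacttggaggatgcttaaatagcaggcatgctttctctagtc
Cd68: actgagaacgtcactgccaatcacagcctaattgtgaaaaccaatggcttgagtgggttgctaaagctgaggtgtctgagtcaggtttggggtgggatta
Mpeg1: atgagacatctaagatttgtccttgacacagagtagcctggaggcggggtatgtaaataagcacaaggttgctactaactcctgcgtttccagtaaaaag
The positions are chr1:170976072-170976171 (minus strand) for Fcgr2b, chr3:106790150-106790249 (minus) for Cd53, chr4:130913216-130913315 (plus) for Laptm5, chr7:128129450-128129549 (plus) for Itgax, chr10:117282273-117282372 (minus) for Lyz2, chr11:69666171-69666270 (minus) for Cd68 and chr19:12460670-12460769 (plus) for Mpeg1. The match began 39 bases before the start in Cd53 and 38 bases before it in Laptm5, where it lay on the opposite strand. Cd68 had a match 225 bases before its start, outside the run shown, and the other 4 runs held none. Over the 250 bases before the start, on both strands, 14 of the 31 promoters of the listed genes held the letters (45.2%), against 23.3% of all 32851 promoters. The longer form GAGGAAGT, reverse complement ACTTCCTC, which contains the shorter one, stood in 1 of the 31 (3.23%) and in 2.44% of all promoters. The letters were chosen with results of these arrays known, and a match describes the sequence and is not a measured binding site.

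The tissue and the labels were checked first. Kidney markers were bright in all groups: the summed signal of 10 nephron genes, among them Umod, Slc34a1 and Aqp2, ran from 44384 to 62706 in 7-day controls, 34606 to 49423 in 7-day KO arrays and 69171 to 98002 at 1 month. At 7 days 2 of these 10 genes had a higher mean in KO, with a median log2 fold change of -0.28, and 0 passed the threshold. The targeted gene checked the labels poorly. Its brightest probe set was nearer to the median of the opposite group of that age in 4 arrays, called label-discordant below. They were 7-day controls 1 and 2, 7-day KO 4 and 1-month KO 1. Whether its probes lie in a part that the KO allele alters is not known here, so each direction is that of the labels, KO relative to control. Both arrays of 7-day pair 4 stood apart in their brightest signals, with maxima of 10767 and 10167 against at least 25718 elsewhere. The tests were two-sided limma tests with Benjamini-Hochberg adjustment, on log2(signal + 29), which understates the change of dim genes. A gene is said to have risen or fallen at an adjusted p under 0.05.

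At 7 days of age the myeloid genes were higher in the kidneys labelled Aprt KO. The mean of 29 of the 30 genes was higher, where 46.82% of all genes were, and their median log2 fold change was 0.68 against -0.01 over all 8251 genes. Of the 19 genes above the signal limit 13 rose and none fell, where 2.54% of the 5744 genes tested rose. In the fit to all 8251 genes 17 of the 30 rose, which added the dim genes Fcer1g, Itgb2, Ncf4 and Ptprc, where 1.96% of all genes rose. The signal limit used the mean over all arrays, so a gene can pass it through the group in which it then rises. Cd53, among the 13 risers, passed with only its 7-day KO mean (251.6) above 118.6. Its means were 71.1 in 7-day controls, and 18.3 and 96.4 in controls and KO at 1 month. Mrc1, which did not rise, passed in the same way. Cd53 also rose in the fit to all genes, which has no such limit (limma, adjusted p 0.00119). In 11 of the 30 genes every KO array lay above every control, which held for 1.7% of all genes (Cd14, Cd68, Lyz2, Csf1r, Fcgr2b, Fcer1g, Tyrobp, Ncf4, Cd52, Coro1a and Lsp1). An unadjusted p under 0.05 was reached by 22 of the 30, all higher in KO, and the share of all genes that reached it was not counted. In a whole kidney, more cells of a type and more RNA per cell cannot be told apart.

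The size of the difference varied between litters. The KO mouse was above its littermate in 28, 28, 20, 26, 27 and 29 of the 30 genes in pairs 1 to 6, with median log2 differences of 0.96, 0.94, 0.19, 0.79, 0.62 and 0.72. Pair 3 was the low one from both sides. Control 3 had the highest control signal in 16 of the 30 genes, where it did in 23.9% of all genes, and KO 3 had the lowest KO signal in 14, where it did in 24.1% of all genes. The mean log2 level over the 30 genes was 8.01 in control 3 against 7.43 to 7.68 in the other controls, and 8.14 in KO 3 against 8.37 to 8.49 in the other KO arrays. Without control 3, 17 of the 19 genes above the signal limit rose, and 21 of the 30 in the fit to all genes, the latter an alternative added after seeing the data. Control 3 is named here for its high signals in these same genes, so leaving it out tends to raise their differences. Values without control 3, here and below, are therefore no separate support. Without pair 4, whose brightest signals were low, 11 of the 19 rose. Without the 4 label-discordant arrays 9 of the 19 rose. The share of all genes that rose with arrays left out is not given here.

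**Figure D1:**
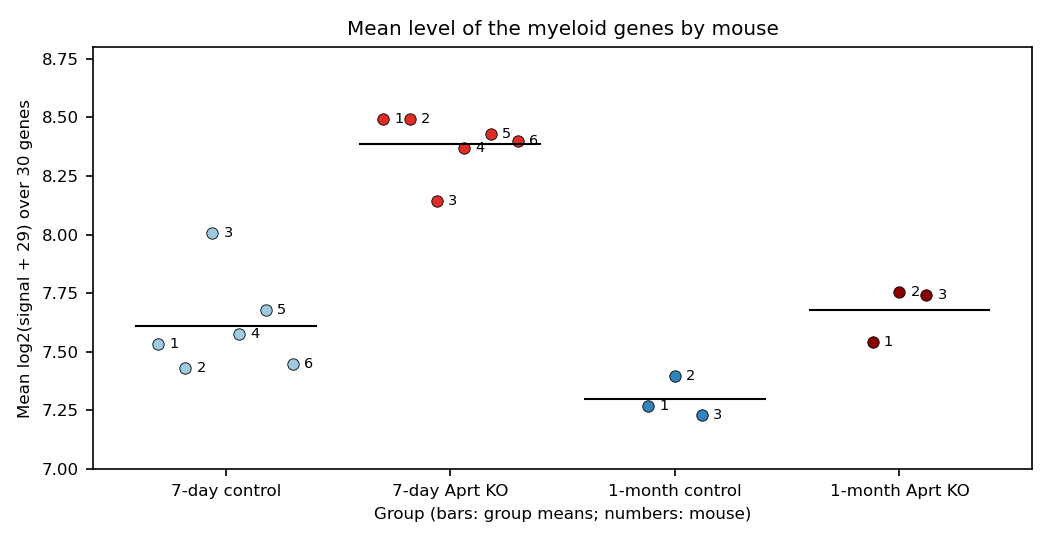
Mean log2(signal + 29) over the 30 myeloid genes in each of 18 kidneys, by group, with the mouse number beside each point and a bar at the group mean. The 7-day KO arrays sit between 8.14 and 8.49, above all 7-day controls, whose highest value, 8.01, belongs to control 3; the 1-month KO arrays sit between 7.54 and 7.75 and the 1-month controls between 7.23 and 7.40.

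Among the surface receptors Cd14, the co-receptor for bacterial lipopolysaccharide, gave the clearest separation. Its signal was 545 at lowest, 605 at the median and 689 at highest in the 6 controls, and 1469, 2257 and 2403 in the 6 KO arrays. No KO array came near the controls, and the lowest of them, KO 3, was still above the highest control. Mean signal went from 609 ± 58.7 to 2122 ± 364 (SD, n = 6 each). On the log2 scale Cd14 rose by 1.74 (SE 0.11, adjusted p 1.552e-08). Mrc1, the mannose receptor of tissue macrophages, ranged from 67.1 to 191 in controls and from 122 to 276 in KO arrays, and the groups overlapped through controls 3 and 4. Its log2 fold change was 0.70 (SE 0.23) with an adjusted p of 0.145, although KO was above the littermate in 6 of 6 pairs. With the litter pair as a block its adjusted p was 0.0285. The dim scavenger receptor Msr1, which takes up modified lipoproteins, had a log2 fold change of 0.19 (SE 0.21) and overlapped widely.

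The lysosomal and effector genes held the largest fold change of the list. Lyz2, a lysozyme that digests bacterial walls, read 120.5, 215 and 618 (lowest, median and highest) in controls and 971, 1362 and 1696 in KO arrays. The control at 618 was control 3, and the other 5 lay at or below 229. The log2 fold change was 2.38 (SE 0.27, adjusted p 1.494e-05), and 2.66 without control 3. Lyz2 has a near-identical neighbour, Lyz1, and probes for the one can read the other. Cd68, a glycoprotein of macrophage lysosomes, read 168, 208 and 288 in controls and 413, 468 and 519 in KO arrays, without overlap, a log2 fold change of 1.05 (SE 0.13, adjusted p 3.202e-05). Mpeg1, the pore-forming perforin-2 of macrophages, had a log2 fold change of 0.76 (SE 0.15, adjusted p 0.00528). Its controls ran from 215 to 379 and its KO arrays from 342 to 551, so that control 3 alone reached into the KO range. Laptm5, a lysosomal membrane protein of blood cells, read 290.0, 381 and 601 in controls and 513, 703 and 841 in KO arrays. Controls 3 and 5 overlapped the KO arrays, and the log2 fold change was 0.71 (SE 0.18, adjusted p 0.0362).

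Apoe, the lipid carrier that macrophages and liver make, missed the threshold at 7 days. It read 3375, 7893 and 8342 in controls and 4209, 8401 and 9271 in KO arrays, a log2 fold change of 0.05 (SE 0.26). Its low arrays were control 3 and KO 3, at 3375 and 4209, and KO 4, at 4467. The KO array was above its littermate in 5 of 6 pairs.

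**Figure D2:**
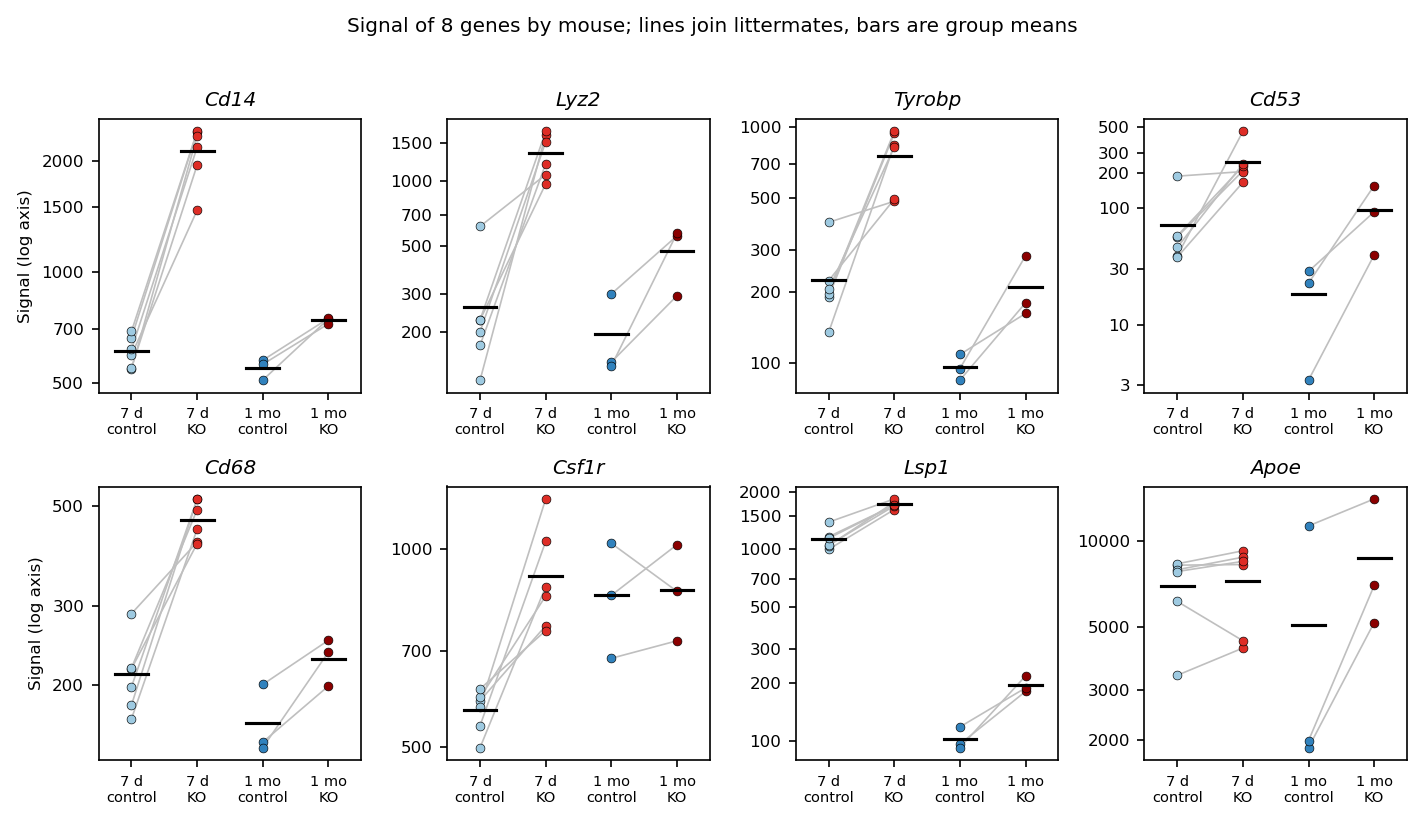
Signal of 8 genes in each kidney on log axes, by group (6 mice per 7-day group, 3 per 1-month group), with lines between littermates and bars at the arithmetic group means. Cd14 in 7-day KO arrays lies at 1469 to 2403 above controls at 545 to 689, control 3 is the high 7-day control in Lyz2 (618), Tyrobp (394) and Cd53 (189), and Lsp1 falls from 1002 or more at 7 days to 218 or less at 1 month.

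Of the genes for growth and lineage, the receptor and the transcription factor rose. Csf1r, the receptor for macrophage colony-stimulating factor, read 499, 582 and 613 in controls and 752, 863 and 1191 in KO arrays, without overlap, a log2 fold change of 0.64 (SE 0.11, adjusted p 0.00195). Spi1 read 75.0, 134 and 170.1 in controls and 159, 234 and 305 in KO arrays. KO 3, at 159, was the one KO array inside the control range. The log2 fold change was 0.75 (SE 0.16, adjusted p 0.0131). Adgre1, which encodes the macrophage surface marker F4/80, was dim at 21.7 to 100.4 in controls and 25.7 to 116 in KO arrays, with a log2 fold change of 0.25 (SE 0.28). Aif1, the calcium-binding protein Iba1, lay at 20.3 or below in 5 controls and at 195 in control 3, and at 27.4 to 107 in KO arrays. Its log2 fold change was 0.59 (SE 0.35, adjusted p 0.741 in the fit to all genes) and 1.02 without control 3 (adjusted p 0.00367).

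Of the Fc receptors 1 of 3 rose. Fcgr2b, the inhibitory receptor for immunoglobulin G, read 72.1, 95.3 and 105 in controls and 113, 175 and 228 in KO arrays. The groups did not overlap, with KO 4 closest to the controls, and the log2 fold change was 0.74 (SE 0.15, adjusted p 0.00575). Fcgr1, the high-affinity activating receptor, ran from 100.3 to 359 in controls, the highest again control 3, and from 183 to 301 in KO arrays. Its log2 fold change was 0.51 (SE 0.21, adjusted p 0.337), and without control 3 it was 0.71 (adjusted p 0.0202). The adjusted p of Fcgr1 was 0.069 with the litter pair as a block and 0.0438 with litters as a random effect. Fcgr3, a low-affinity activating receptor, was dim and had a log2 fold change of 0.05 (SE 0.27), with KO above the littermate in 2 of 6 pairs. A difference between Fcgr2b and the activating receptors was not tested.

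Both signalling adaptors rose, but Fcer1g had a mean signal of 28.6, near the floor of the array, which limits what its rise can show. Tyrobp, also known as DAP12, read 135, 200.5 and 394 in controls and 484, 832 and 958 in KO arrays. The groups did not overlap: control 3 at 394 and KO 3 and KO 4 at 484 and 494 were the arrays that came closest. The log2 fold change was 1.65 (SE 0.21, adjusted p 7.44e-05). Fcer1g, the gamma chain that carries activating Fc receptors, was dim, with 7.99, 9.83 and 31.9 in controls and 33.8, 35.9 and 47.2 in KO arrays, and rose by 0.62 on the log2 scale (SE 0.15, adjusted p 0.0313 in the fit to all genes).

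The 3 integrin subunits had unlike values. Itgax, the CD11c chain of dendritic cells and some macrophages, read 103, 128 and 165 in controls and 145, 242 and 273 in KO arrays, and KO 3 alone lay among the controls. Its log2 fold change was 0.69 (SE 0.16, adjusted p 0.0240). Itgb2, the CD18 chain with which all these integrins pair, was dim at 9.36, 32.5 and 76.7 in controls and 45.3, 120.0 and 187 in KO arrays. KO 3, at 45.3, lay below 2 controls, and the log2 fold change was 1.11 (SE 0.28, adjusted p 0.0461 in the fit to all genes). When every probe set was tested by itself its adjusted p was 0.0563. Itgam, the CD11b chain of monocytes and neutrophils, stayed at a signal of 21.4 or less on all 18 arrays, so that a change could not be read from it, and its log2 fold change was 0.17 (SE 0.11).

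Of the oxidase, which makes superoxide in phagosomes, the cytosolic subunit Ncf4 changed most. It was dim, with 7.999, 22.04 and 52.4 in controls and 88.9, 144 and 238 in KO arrays, and no overlap. The log2 fold change was 1.72 (SE 0.22, adjusted p 0.000124 in the fit to all genes). Cybb, the catalytic membrane subunit, read 67.3 to 111 in controls and 101 to 179 in KO arrays, a log2 fold change of 0.58 (SE 0.15, adjusted p 0.0557), and 0.64 without control 3 (adjusted p 0.0354). Cyba, its membrane partner, which many cell types make, had a log2 fold change of 0.06 (SE 0.13). Both pair 4 arrays were its lowest at this age, at 5684 and 5339, and the other 10 lay between 6753 and 8853.

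All 3 leukocyte surface genes rose. Cd52, a small surface glycoprotein of leukocytes, read 132, 183 and 251 in controls and 383, 530.0 and 615 in KO arrays, without overlap, a log2 fold change of 1.39 (SE 0.17, adjusted p 3.921e-05). Cd53, a leukocyte tetraspanin, read 38.0, 51.5 and 189 in controls and 167, 219 and 457 in KO arrays. Control 3, at 189, overlapped KO 6, at 167, while the other 5 controls lay at 57.9 or below. The log2 fold change was 1.56 (SE 0.26, adjusted p 0.000958). Ptprc, the leukocyte phosphatase CD45, was dim at 17.2, 26.6 and 89.4 in controls and 66.6, 84.4 and 109 in KO arrays, a log2 fold change of 0.85 (SE 0.20, adjusted p 0.0266 in the fit to all genes). Control 3 was again the overlapping control.

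Of the actin-binding proteins of leukocytes, Lsp1 rose and the other two missed the threshold. Lsp1, which binds actin in leukocytes and endothelium, read 1002, 1099.6 and 1390.3 in controls and 1619, 1704 and 1839 in KO arrays, without overlap, a log2 fold change of 0.60 (SE 0.09, adjusted p 0.000535). Coro1a, a coronin of haematopoietic cells, read 166 to 257 in controls and 258 to 391 in KO arrays. Its groups did not overlap by a narrow gap between control 3 and KO 3, and its log2 fold change was 0.68 (SE 0.19, adjusted p 0.0565). Coro1a was called without control 3 (adjusted p 0.0431), without KO 3 (0.0374), without 1-month control 1, control 2, KO 1 or KO 2 (0.0169 to 0.0331), with the 7-day arrays alone (0.00669) and with litters as a random effect (0.0172). With the litter pair as a block Coro1a still missed the threshold (0.0667). Lcp1, the plastin of leukocytes, read 206 to 325 in 5 controls, 682 in control 3 and 381 to 670.3 in KO arrays. Its log2 fold change was 0.65 (SE 0.22, adjusted p 0.150), 0.86 without control 3 (adjusted p 0.00465), and its adjusted p was 0.0285 when litters were blocked. The dim platelet chemokine Pf4 was the one gene of the 30 with a lower mean, at a log2 fold change of -0.16 (SE 0.24) and with KO above the littermate in 1 of 6 pairs.

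**Figure D3:**
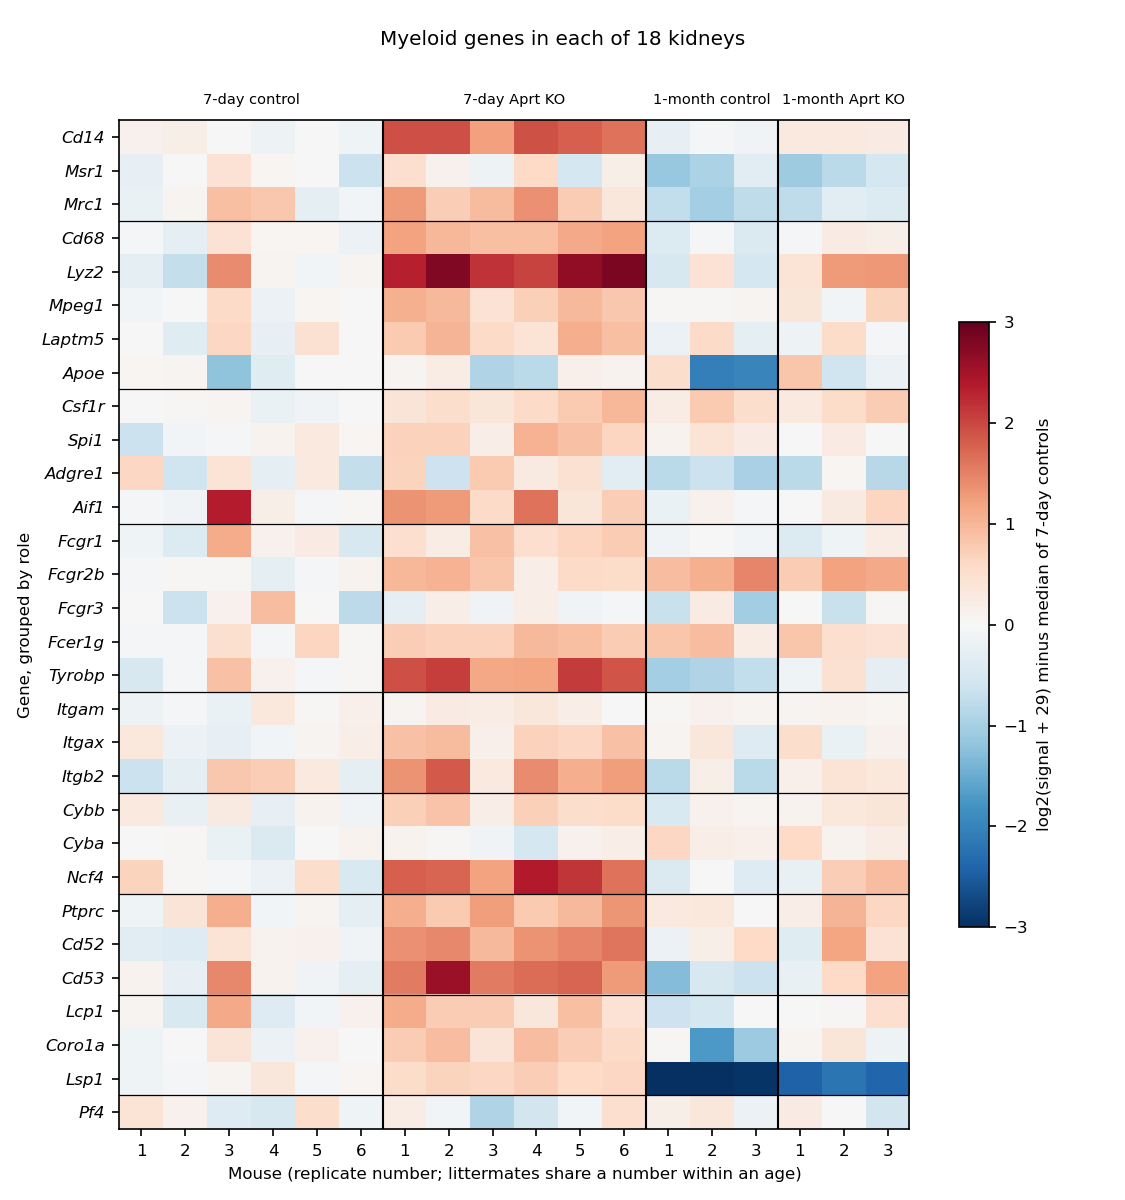
Log2(signal + 29) of each of the 30 genes in each of 18 kidneys, as the difference from that gene's median in the 7-day controls (red above, blue below), with genes grouped by role and mice by group. The 7-day KO block is red for most genes and pale or blue for Apoe, Cyba, Fcgr3, Itgam and Pf4, control 3 stands out among the 7-day controls in Lyz2, Aif1, Cd53 and Lcp1, and Lsp1 is the deep blue row at 1 month.

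The calls of 5 of the 13 genes depended on single arrays or settings. Itgax and Laptm5 lost their calls most often, in 13 of 40 and 14 of 41 alternatives. Without KO 2 their adjusted p-values were 0.0722 and 0.0810, and without KO 1, KO 5, KO 6, control 2 or control 4 they lay between 0.0541 and 0.0935. They also missed the threshold without any one of pairs 1, 2, 4, 5 and 6 (0.0623 to 0.153), and Laptm5 did so without control 1 or control 6 (0.0659 and 0.0673). Spi1 lost its call without pair 1 or pair 2 (adjusted p 0.0543 and 0.0601), and Mpeg1 and Csf1r when probe sets were averaged (0.0588 and 0.106). Without the 4 label-discordant arrays, Itgax, Laptm5, Spi1 and Mpeg1 had adjusted p-values of 0.130, 0.220, 0.204 and 0.107.

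The genes with more than 1 probe set did not always read alike. The other probe set of Lsp1 rose by 0.69 on the log2 scale (SE 0.13, adjusted p 0.00518 over all probe sets). The other probe set of Laptm5 changed more than the brighter one, from a mean of 173 in controls to 600.0 in KO arrays (log2 fold change 1.71, SE 0.37, adjusted p 0.0188). The brighter one had an adjusted p of 0.0551 in that fit, in which 16 of the 30 genes had a called probe set. The other probe set of Csf1r read 152 in controls and 172 in KO arrays, a log2 fold change of 0.12 (SE 0.22), so its 2 probe sets disagree. The other probe sets of Lyz2, Cd68, Mpeg1 and Apoe had mean signals from 2.68 to 22.7, too dim to read a change from. Those of Adgre1, Fcer1g, Fcgr1, Lcp1, Msr1 and Ptprc had mean signals from 3.64 to 61.2, below the signal limit, and that of Cyba had 3923.

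Genes that work beside these were counted from companion lists. All 3 chains of C1q, the complement starter that macrophages make, rose among the 4 testable genes of their list: C1qa from 381 ± 124 to 1096 ± 160.5 (SD, n = 6, log2 fold change 1.49), C1qb by 1.32 and C1qc by 0.81. Of 11 testable genes among other receptors, proteases and surface proteins of monocytes and macrophages 3 rose. The elastase Mmp12, which read 15.6 to 96.2 in controls and 500.2 to 3243 in KO arrays, rose by 4.25 (SE 0.38), the lysosomal protease Ctss by 1.95 (SE 0.29) and the galectin Lgals3 by 0.65 (SE 0.12). Control 3 was the highest control in Mmp12, Ctss, C1qa, C1qb and C1qc too, with 845 for Ctss against 146 to 275 in the others. Csf1, a ligand of Csf1r, was the one riser among 6 genes of the colony-stimulating factor axis, at a log2 fold change of 0.72 (SE 0.16, adjusted p 0.0148). Cebpb, a factor of the myeloid lineage that many tissues express, was the one riser among 7 transcription factors (0.74, SE 0.18, adjusted p 0.0307). None of the 8 testable kinases, phosphatases and adaptors downstream of Fc receptors changed at an adjusted p under 0.05, and 10 of the 11 on the array had a higher mean in KO, with a median log2 fold change of 0.27. Rac2 of the oxidase had a log2 fold change of 0.47 (adjusted p 0.0743), and neither Myd88 nor Lbp, which act beside Cd14, passed the threshold (0.28 each).

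Markers of other cells were read in the same arrays. Of 16 neutrophil genes 12 had a higher mean in KO, with a median log2 fold change of 0.25, and 2 of the 4 testable ones rose. They were S100a8, a calprotectin subunit that monocytes share (log2 fold change 1.06, SE 0.21), and Lcn2, which injured tubules also make (3.47, SE 0.17). S100a8 read 72.4 to 195.1 in 7-day controls and 186.6 to 383.3 in 7-day KO arrays. Those KO arrays count in the mean by which S100a8 passed the signal limit. The mean log2 level of the neutrophil list was 6.25 to 6.56 in 7-day controls and 6.73 to 7.05 in KO arrays, without overlap. Lcn2 is part of that mean, so the gap cannot be read as one of the other neutrophil genes. The summed signal of the list was 1168 to 1412 in 7-day controls and 4154 to 5310 in KO arrays, and Lcn2 alone read 196 to 414 and 2657 to 3864. Of 17 T and B lymphocyte genes 11 had a higher mean in KO and the median log2 fold change was 0.05. The mean log2 level of that list overlapped, at 6.41 to 6.69 in 7-day controls and 6.58 to 6.90 in KO arrays. Its summed signal was 1450.0 to 1843 in controls and 2101 to 3044 in KO arrays, and Thy1 alone read 397 to 547 and 881 to 1479. Thy1, which stromal and neural cells also carry, was the one riser of 5 testable genes, from 438 ± 55.7 to 1203 ± 207 (SD, n = 6, log2 fold change 1.39, SE 0.21). The T cell markers Cd3d, Cd3e and Cd3g had means of 11.9 to 32.8 in both groups, too dim to read a change from. The B cell markers Cd79a and Cd79b read 109 and 94.5 in controls and 94.9 and 120.4 in KO arrays. Dendritic and natural killer and mast cell genes had median log2 fold changes of 0.01 each, and 0 of 2 testable genes in each list passed the threshold. Of 6 red cell and platelet genes 4 had a higher mean in KO, with a median log2 fold change of 0.09. The mean log2 level of that list overlapped, at 8.25 to 8.63 in 7-day controls and 8.06 to 8.52 in KO arrays. Of the 3 testable ones Slc4a1, an anion exchanger found in red cells, fell by 0.79 (SE 0.11), so this fall was not that of the list. The part of these other cells in the rise of the genes shared by all leukocytes was not tested.

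At 1 month the median difference was smaller and Lsp1 was the one gene of the 30 that rose. The mean was higher in KO for 24 of the 30 genes, where 49.39% of all genes were, and the median log2 fold change was 0.30 against 0.00 over all genes tested. Of the 19 testable genes 1 rose, where 0.296% of the 5744 rose, and none fell. In 9 of the 30 the unadjusted p was under 0.05, and the share of all genes was not counted. In 4 genes all 3 KO arrays lay above all 3 controls, where 4.16% of all genes did. The KO mouse was above its littermate in 22, 19 and 24 of the 30 genes in pairs 1 to 3, with median log2 differences of 0.14, 0.21 and 0.41. The number of arrays, 3 against 3, limits the precision, and standard errors were larger than at 7 days.

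Lsp1 read 95.97, 91.99 and 118 in controls 1 to 3 and 181, 218 and 189 in KO 1 to 3. The lowest KO array was well above the highest control, and the log2 fold change was 0.78 (SE 0.13, adjusted p 0.0118). The call was lost without control 1, control 2, KO 1 or KO 2 (adjusted p 0.0688, 0.0753, 0.0708 and 0.0727), without pair 1 or pair 2 (0.0678 and 0.213), and when the 1-month arrays were fitted alone (0.623). Without control 1, KO 1 or pair 1 the gene called at 1 month was Coro1a instead, with a log2 fold change of 1.51 and adjusted p-values of 0.0274 and 0.0275.

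Cd14, the gene with the clearest difference at 7 days, read 508, 575 and 561 in the 1-month controls and 745, 747 and 722 in the KO arrays. The groups did not overlap, but the log2 fold change was 0.41 (SE 0.16, adjusted p 0.739). Cd53 read 3.34, 28.7 and 22.8 against 39.7, 93.1 and 156 (log2 fold change 1.34, SE 0.36, adjusted p 0.215), with all KO arrays above all controls. Tyrobp, also without overlap, read 84.5, 94.6 and 109 against 179.7, 285 and 162 (0.90, SE 0.30, adjusted p 0.473). These 3 and Lsp1 were the 4 genes without overlap. Lyz2 read 146, 301 and 140.0 in controls and 295, 559 and 575 in KO arrays, where control 2 and KO 1 met (1.19, SE 0.38, adjusted p 0.408). Coro1a was low in controls 2 and 3, at 37.5 and 74.8, and 196 in control 1, against 203, 255 and 169.7 (1.03, SE 0.27, adjusted p 0.169).

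Apoe split between pair 1 and the other pairs at 1 month, where litter and sex cannot be told apart. It read 11347, 1876 and 1985 in controls 1 to 3 and 14126, 5178 and 6995 in KO 1 to 3. Both mice of pair 1, the female pair, were high, and within each of the 3 pairs KO was above control. The log2 fold change was 1.19 (SE 0.37, adjusted p 0.395). Blocking on litter brought the adjusted p to 0.0157, which made Apoe and Lsp1 the 2 genes called in that fit. Several genes that rose at 7 days had 1-month values within 1 SE of 0, among them Csf1r (682, 1019.7 and 850.2 in controls, 725, 862 and 1015 in KO arrays, log2 fold change 0.03, SE 0.16), Itgax (0.14, SE 0.23), Fcer1g (-0.07, SE 0.21), Fcgr2b (-0.11, SE 0.21) and Spi1 (-0.16, SE 0.23). For Laptm5 the brighter probe set gave 0.07 (SE 0.25), while the other one read 229 in controls and 414 in KO arrays, a log2 fold change of 0.99 (SE 0.53, adjusted p 0.9997 over all probe sets).

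Genes of other tissues also had higher signals in the 1-month KO arrays. All 10 genes measured of fat, adrenal gland and skeletal muscle had a higher mean in KO, with a median log2 fold change of 1.26, and 0 of 8 testable ones passed the threshold. Their summed signal was 1253 to 2476 in controls and 2896 to 8885 in KO arrays. Single arrays carried much of this. Acta1, of skeletal muscle, read 472, 7.14 and 3978 in KO 1 to 3 against 2.18 to 12.0 in controls. The adrenal gene Cyp11a1 read 20.1, 688 and 287 in KO 1 to 3 against 10.8 to 98.8, and Star 13.8, 628 and 306 against 13.7 to 60.1. Lcn2, at a log2 fold change of 1.62 (SE 0.23, adjusted p 0.00653), was the one gene of the 14 companion lists that rose. Its controls lay at 51.0 to 71.2 and its KO arrays at 129.5 to 371. The part of the other tissues in the myeloid values at 1 month was not tested. At 7 days the same 10 genes summed to 2019 to 4296 in controls and 1464 to 4037 in KO arrays, with 2 of 10 higher in KO. Acta1 was high there in both arrays of pair 4, at 1662 in the control and 1842 in KO. Cyp11a1 was high there in controls 1, 2 and 6 and KO 2 (442 to 534), with 24.8 or less in the other 8 arrays.

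**Figure D4:**
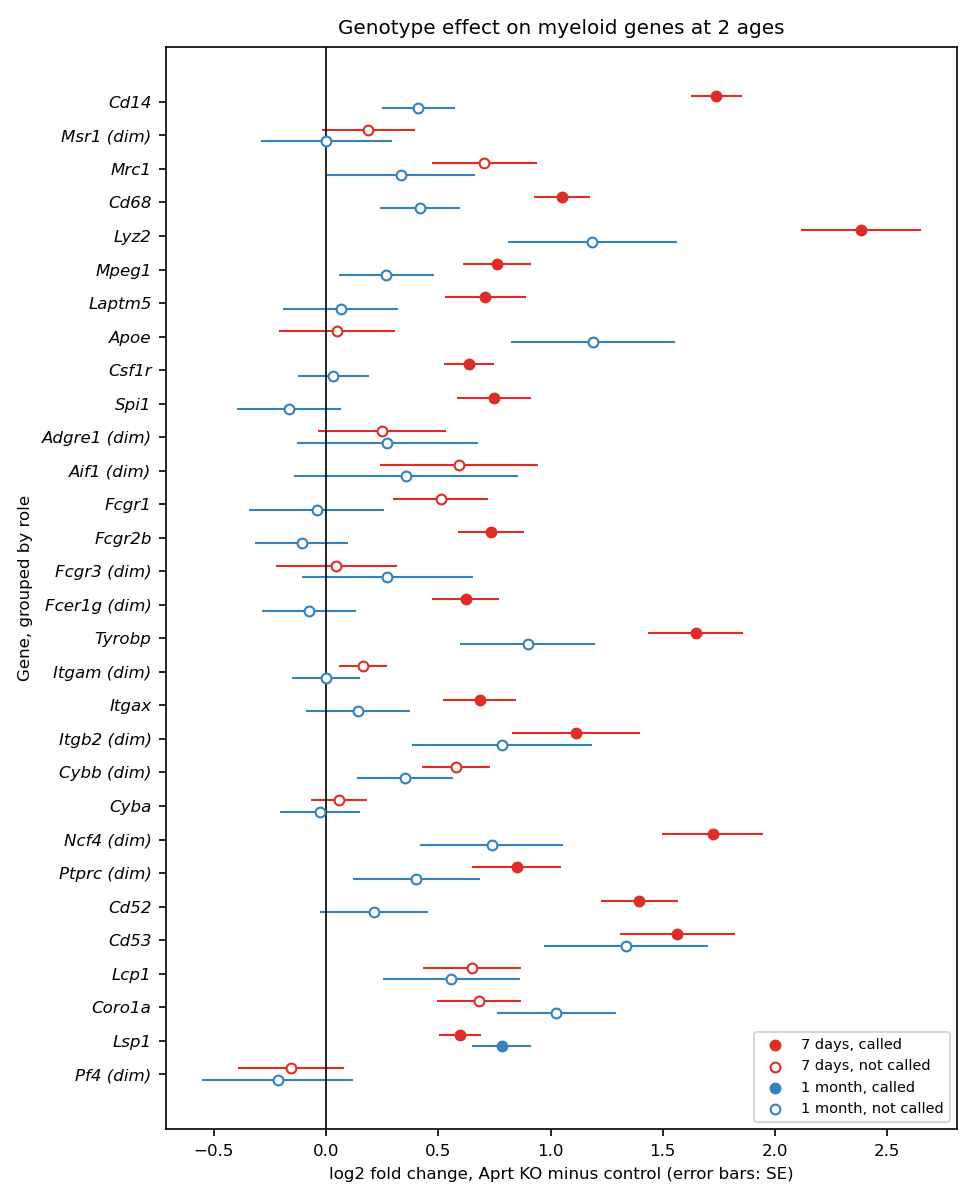
Log2 fold change (Aprt KO minus control) of each of the 30 genes at 7 days (red) and 1 month (blue), with standard errors; filled points passed an adjusted p of 0.05, for dim genes in the fit to all genes. At 7 days 17 points are filled, from Lsp1 at 0.60 to Lyz2 at 2.38, and at 1 month the filled point is Lsp1 at 0.78.

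Whether the genotype difference changed with age was tested as an interaction. The log2 fold change was lower at 1 month in all but 5 of the 30 genes, while it was higher at 1 month in 51.57% of all genes. The median interaction was -0.41 on the log2 scale against 0.02 over all genes tested. Of the 19 testable genes Cd14 was the one called (lower, 0.261% of all genes tested). Its genotype difference fell by 1.33 log2 units between the ages (SE 0.20, adjusted p 0.00409), from 1.74 to 0.41. The adjusted p was 0.0524 without the 4 label-discordant arrays. Cd52 had an interaction of -1.18 (SE 0.30, adjusted p 0.123), and it was called without 7-day control 3, 1-month KO 2, 7-day pair 3 or 1-month pair 2 (adjusted p 0.0483, 0.0369, 0.0313 and 0.0372). Lyz2, at -1.20, had the wide standard error of 0.46 (adjusted p 0.631). Apoe went the other way, at 1.14 (SE 0.45, adjusted p 0.650), and blocking on litter gave 0.0486, which made it a call. With litters as a random effect 6 genes were called: Cd14, Cd52 (adjusted p 0.0217), Apoe (0.0467), Fcgr2b (-0.84, 0.0208), Spi1 (-0.91, 0.0242) and Csf1r (-0.60, 0.0487). The share of all genes called in that fit is not given here.

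Age itself was compared within each genotype. The ages share no mouse or litter, no scan date was used here, and age and any array batch cannot be told apart. The genotype and age comparisons share arrays, so their values stand side by side and are not set against each other as separate evidence. The median over all genes tested was -0.11 in controls and -0.12 in KO arrays, and 0.00 in both after quantile normalization.

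In control kidneys the mean was higher at 1 month for 9 of the 30 genes, where 40.46% of all genes were, with a median log2 change of -0.26 against -0.09 over all 8251 genes. Of the 19 testable genes 3 were higher at 1 month, where 14.8% of all genes were, and 5 were lower, where 26.1% were. After quantile normalization the split was 2 higher and 6 lower. Lsp1 fell by 3.17 on the log2 scale (SE 0.12, adjusted p 1.209e-12), from a mean of 1134 ± 140.2 (SD, n = 6) to 102 ± 14.0 (SD, n = 3), and the other probe set read 759.9 and 102. Tyrobp fell by 1.00 (SE 0.27), and Cd53, Mrc1 and Coro1a fell too, with log2 changes of -1.14 (SE 0.32), -1.06 (SE 0.29) and -0.84 (SE 0.23). Fcgr2b rose from 92.9 ± 11.3 to 250.4 ± 56.5 (log2 fold change 1.12, SE 0.18, adjusted p 8.364e-05), Cyba rose by 0.49 and Csf1r by 0.48. In the fit to all genes the dim gene Msr1 also changed, by -0.82 (adjusted p 0.0224), and Fcer1g rose by 0.55 (adjusted p 0.0318). Without 1-month control 1 the calls of Cd53, Tyrobp, Csf1r and Cyba were lost (adjusted p 0.0505, 0.0669, 0.0805 and 0.146), which left 4. Without 1-month control 2 those of Coro1a and Csf1r were lost (0.0639 and 0.0529). The call of Cyba was also lost with probe sets averaged (adjusted p 0.0723), after quantile normalization (0.0511) and without sex terms (0.0622). With litters as a random effect 7 calls were left, and Coro1a had an adjusted p of 0.0566.

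In kidneys labelled Aprt KO the mean was higher at 1 month for 4 of the 30 genes, where 38.72% of all genes were, with a median log2 change of -0.68 against -0.11 over all 8251 genes. Of the 19 testable genes 12 were lower, where 25.3% of all genes were, and 1 was higher, where 15% were. After quantile normalization 8 were lower and none higher. The log2 changes were -2.98 for Lsp1 (SE 0.12), -1.74 for Tyrobp (SE 0.27), -1.58 for Lyz2 (SE 0.33), -1.48 for Cd14 (SE 0.14), -1.43 for Mrc1 (SE 0.29) and -1.37 for Cd53 (SE 0.32). Cd52, Cd68, Laptm5, Fcgr1, Spi1 and Mpeg1 also fell, with log2 changes of -1.10 to -0.51. In the fit to all genes the dim genes Ncf4 and Itgb2 fell as well, with log2 changes of -1.45 and -0.97, and Msr1 fell by 1.00. Lyz2 read 1350.4 ± 308 at 7 days (SD, n = 6) and 476 ± 157 at 1 month (SD, n = 3), and Cd14 2122 ± 364 and 738 ± 13.7. Cyba rose by 0.41 with an adjusted p of 0.0477, a call lost in 24 of 37 alternatives, and those of Mpeg1 and Fcgr1 were lost in 18 of 37 and 15 of 36. With litters as a random effect 11 calls were left, without Fcgr1 and Mpeg1 (adjusted p 0.0609 and 0.116). Without 1-month KO 1 the calls left were 6, and those of Cd52 and Cd53 were among the lost (adjusted p 0.0501 and 0.0692). That array is one of the 4 label-discordant ones, and without all 4 of them 5 calls were left. Laptm5 and Spi1 also lost theirs without 1-month KO 3 (0.0750 and 0.0731).

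**Figure D5:**
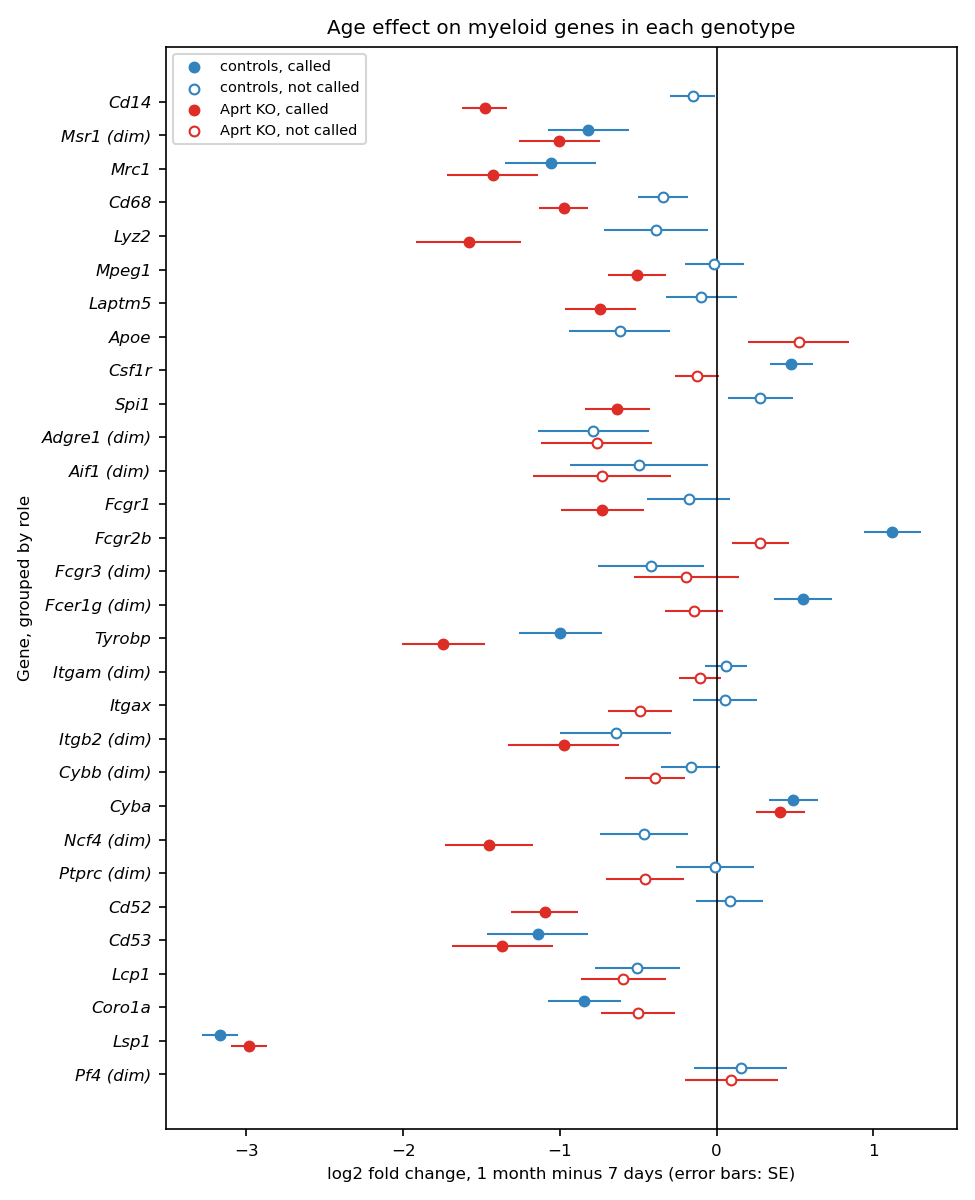
Log2 fold change with age (1 month minus 7 days) of each of the 30 genes in controls (blue) and in Aprt KO kidneys (red), with standard errors; filled points passed an adjusted p of 0.05, for dim genes in the fit to all genes. Lsp1 lies at -3.17 and -2.98, Cd14 and Lyz2 have filled points in KO and open ones in controls, and Fcgr2b is the gene with the largest rise in controls, at 1.12.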

How the data were processed

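Total RNA of 18 kidneys was extracted with RNeasy columns, labelled with biotin and hybridised to 1-colour arrays, per the labels' protocols. The authors deposited 1 signal intensity per probe set and array, on a linear scale; per the submitters' processing notes the tools were GCOS and MAS5. The 2% trimmed means of the arrays lay at 500.2 to 500.4 and the medians at 160.1 to 216.4. The number of arrays limits the precision.

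The platform annotation pairs 10833 of the 12488 probe sets with a single gene symbol and 396 with several; 1193 are unnamed and 66 are controls. The brightest single-symbol probe set stood for a gene. Signals entered limma 3.58.1 (R 4.3.3) as log2(signal + 29), where 29 is the 20th percentile, with 4 groups and 1 sex term per age. Age comparisons average over the sexes. The 5744 of 8251 genes with a mean signal at or above the 40th percentile were tested with an intensity trend, at 12 residual degrees of freedom. Benjamini-Hochberg adjustment ran over all of them, with a threshold of 0.05 for a call. A fit to all 8251 genes served the dim genes. The scripts were tested on simulated data.

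Every gene of the list is named. Of each companion list up to 4 called genes with the largest change in each direction are named per genotype comparison, and Rac2, Myd88, Lbp, the Cd3 and Cd79 genes, Acta1, Cyp11a1, Star and the kidney markers were named after their values were seen. The genes, companion lists and alternatives were chosen with earlier results of these arrays known. Littermates pair the samples, since the labels name each mouse's littermate. The correlation of littermates' deviations from their group means was 0.239 to 0.673 in the 9 pairs. Littermates also share their sex, and mice of different litters were not compared, so these values do not test the pairing. Nothing in the labels gives a scan date or other batch. Alternatives changed the pseudocount, the filter, the probe set rule, the normalization, the litter term, the sex terms, the trend and the arrays used. Upstream sequences came from the RefSeq tables, in which 24 of the 34 listed genes had a promoter. Figures were drawn with matplotlib 3.10.9.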

Additional observations from a re-analysis of the deposited data

Results flagged for a closer look

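Among 60 groups of 6 values (each gene in each 7-day genotype), 7 arrays lay far from the other 5 by Dixon's criterion, which chance alone meets in about 5% of groups. Control 3 at 7 days was the array in 6 of the 7. It was the highest control for Lyz2 (618), Mpeg1 (379), Aif1 (195), Cd53 (189) and Lcp1 (682), and the lowest for Apoe (3375). The remaining one was KO 2 for Cd53, with 457 against 167 to 240.3 in the other 5 KO arrays. The genotype difference of Cd14 differed between the ages in a direct test, by -1.33 on the log2 scale (limma, adjusted p 0.00409).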

How the results depend on the processing

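At 7 days, where 13 of 19 genes rose, the count was 8 of 11 testable genes with the filter at the 60th percentile, 11 with probe sets averaged, 15 with the litter pair as a replicate block and 17 with that block as a random effect. It was 11 to 17 with 1 array left out, 10 to 16 with 1 pair left out, and 9 without the 4 label-discordant arrays, whose Aprt signal was nearer to the opposite group. In 2 alternatives chosen after seeing the data, with no filter and without control 3 or pair 3, it was 21 of 30 in each. Cd14, Cd52, Cd53, Cd68, Fcgr2b, Lsp1, Lyz2 and Tyrobp kept their 7-day calls in every alternative run in which they were tested. At 1 month the count of 1 became 2 with a pseudocount of 1 (Cd53, log2 fold change 2.54, adjusted p 0.0256), 2 with the replicate block and 4 with it as a random effect. It was 0 with a pseudocount of 112, with the 1-month arrays alone and without the label-discordant arrays, and 0 to 1 with an array or a pair left out. For the interaction the count of 1 became 2 with the replicate block, 6 with it as a random effect (Fcgr2b, Spi1, Csf1r, Cd52 and Apoe joined Cd14), 0 without the 4 arrays, and 1 to 2 with an array or a pair left out. For age, 8 calls in controls became 4 with the filter at the 60th percentile, 4 to 9 with an array left out and 6 to 9 with a pair left out. The 13 calls in KO became 8 with that filter, 8 after quantile normalization, 5 without the 4 arrays, 6 to 13 with an array left out and 7 to 14 with a pair left out. The causes were not tested. The share of all genes called in each alternative is not given here, so a changed count cannot be read as particular to these genes. The fixed block could not be fitted for age, which lies between litters; as a random effect it left 7 calls in controls and 11 in KO. With the fixed block the other named calls did not change. No direction of a called gene reversed. Signals of the 11 dim genes lie near the floor of the array, which limits what a change in them can show.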
